A study of Rattus norvegicus with 19 samples.

Results

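Histone genes of rat spinal cord cultures are described here, in 19 RNA sequencing libraries. Members are the genes whose symbol in the deposited expression table begins with Hist1h to Hist4h, H1f, H2af or H3f. They number 36 of the 15597 genes of the table. Of these, 26 carry a Hist symbol, the older name for genes of the histone clusters, and 10 carry the symbol of a variant histone (H1f, H2af or H3f). An expression filter set for all genes, of at least 1 FPKM (fragments scaled by transcript length and library total) in at least 4 libraries, was passed by 28 members, made up of 20 Hist and 8 variant genes. A gene that is high in a single group could pass it on that group alone.

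Histones package DNA. A pair of each core histone (H2A, H2B, H3 and H4) forms the nucleosome, and a linker histone H1 sits where the DNA enters and leaves it. Genes of the histone clusters are transcribed mainly in S phase, when new DNA has to be packaged, and most of their mRNAs end in a stem-loop instead of a poly(A) tail. Most variant histone genes are transcribed through the cell cycle and in cells that no longer divide, and their mRNAs carry poly(A) tails. H2afx is an exception, known for a stem-loop mRNA made in S phase beside a polyadenylated one. Variant proteins replace the standard histones at particular places in chromatin. Neurons and other long-lived cells of the nervous system come to rely on variants as replication-coupled supply stops.

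All cultures came from the ventral spinal cord of wild-type Sprague-Dawley rat embryos at embryonic day 14, and hold neurons and glia. They fall into 4 groups. PolyP cultures (n = 5) received long-chain synthetic polyphosphate, a linear polymer of phosphate, at 100 μM for 90 min. The hSOD1-G93A ACM cultures (n = 5) received for 90 min astrocyte conditioned medium (ACM) from spinal cord astrocytes of neonatal SOD1G93A transgenic mice, which carry a mutant human superoxide dismutase that causes amyotrophic lateral sclerosis. The hSOD1-WT ACM cultures (n = 4) received medium of astrocytes expressing wild-type SOD1, likewise for 90 min, and control cultures (n = 5) were left untreated. Control cultures therefore differ from both ACM groups in conditioned medium as a whole, and the contrast between mutant and wild-type astrocytes is the one between both ACM groups. The age of the cultures is uncertain, since the labels name both 7 (tissue) and 4 (treatment) days in vitro. They state independent cultures per condition, which was not tested here, so p-values measure the spread between these libraries.

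Libraries were made from poly(A)-enriched RNA, a selection that leaves out most stem-loop histone mRNA, so Hist values here measure the polyadenylated or captured share of those transcripts. Several Hist genes are near-identical copies, and how the authors assigned shared fragments is not given in the sources used here, so each Hist value carries that uncertainty. The relative depth of the libraries ran from 0.771 to 1.48 of the median library. The libraries form 2 sets that cut across the treatments and that the labels do not name: set 2, of 8 libraries with 2 from each group, had Mbp (myelin basic protein) at 6.54 to 9.62 FPKM, and set 1, of the other 11, had it at 169 to 372 FPKM. Set 1 divides further into 5 libraries (1a) and 6 libraries (1b), which are not spread evenly over the groups. Library class 1a holds 1 control, 2 PolyP, 2 hSOD1-G93A ACM and 0 hSOD1-WT ACM libraries. Library class 1b holds 2 control, 1 PolyP, 1 hSOD1-G93A ACM and 2 hSOD1-WT ACM libraries. Motor neuron markers were near 0 throughout, with Chat at 0.34 to 1.34 FPKM and Mnx1 at 0 to 0.14 FPKM, while the neuronal marker Tubb3 ran from 361 to 773 FPKM.

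Promoter sequences are shown for the Hist and the variant genes with the largest called changes under PolyP, a pair from each class, and for Hist3h2a, whose promoter is shared with a neighbour on the other strand. Each is the 250 bases before the RefSeq transcription start on the rat assembly GRCr8, an assembly other than the one the deposited values used, printed 5′ to 3′ on the strand of the gene. Hist1h4b lies at chr17:47175996-47176245 (plus strand), Hist1h2ail1 at chr17:41997129-41997378 (minus strand), Hist3h2a at chr10:44233033-44233282 (plus strand), H2afz at chr2:229028845-229029094 (plus strand) and H2afx at chr8:53568468-53568717 (plus strand). Capitals mark exact matches, on either strand, to the string CCAAT, to the TATA box string TATAAA, to the octamer ATTTGCAT, to the string AAACACA of linker histone promoters, the E2F strings TTTGGCGC, TTTCCCGC, TTTCGCGC and TTTGCCGC, or the cyclic AMP element TGACGTCA.
Hist1h4b: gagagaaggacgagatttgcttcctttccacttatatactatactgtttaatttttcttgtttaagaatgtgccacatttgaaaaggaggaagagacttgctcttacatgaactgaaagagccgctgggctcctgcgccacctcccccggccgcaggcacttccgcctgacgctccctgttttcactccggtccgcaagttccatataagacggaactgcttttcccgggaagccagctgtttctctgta
Hist1h2ail1: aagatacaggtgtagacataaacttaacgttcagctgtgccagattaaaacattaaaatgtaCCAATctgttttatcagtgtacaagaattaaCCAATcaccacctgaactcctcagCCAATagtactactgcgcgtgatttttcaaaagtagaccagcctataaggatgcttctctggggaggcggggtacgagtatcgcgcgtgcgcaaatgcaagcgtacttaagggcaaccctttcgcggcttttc
Hist3h2a: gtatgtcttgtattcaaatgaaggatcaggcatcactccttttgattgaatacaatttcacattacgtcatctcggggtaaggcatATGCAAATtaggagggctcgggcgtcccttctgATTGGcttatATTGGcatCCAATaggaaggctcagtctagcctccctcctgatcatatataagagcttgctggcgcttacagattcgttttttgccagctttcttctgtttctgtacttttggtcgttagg
H2afz: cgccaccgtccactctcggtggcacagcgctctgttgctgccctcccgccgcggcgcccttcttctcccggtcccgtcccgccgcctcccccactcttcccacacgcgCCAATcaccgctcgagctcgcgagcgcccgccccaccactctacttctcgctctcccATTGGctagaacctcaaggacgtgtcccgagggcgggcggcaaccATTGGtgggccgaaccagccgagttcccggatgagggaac
H2afx: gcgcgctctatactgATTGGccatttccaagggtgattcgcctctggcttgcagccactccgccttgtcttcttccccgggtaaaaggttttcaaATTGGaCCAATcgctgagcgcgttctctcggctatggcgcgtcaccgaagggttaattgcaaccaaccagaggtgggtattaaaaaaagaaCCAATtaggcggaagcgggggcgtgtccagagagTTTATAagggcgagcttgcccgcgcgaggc

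The printed promoters differ in these strings within each class. Hist1h2ail1 and H2afz hold CCAAT matches alone, H2afx holds CCAAT and TATAAA matches, Hist3h2a holds CCAAT and octamer matches, and the Hist1h4b window holds no match. RefSeq gave a promoter for 35 of the 36 members, 25 Hist and 10 variant. CCAAT stood in 23 of 25 Hist promoters (92%), in 6 of 10 variant promoters (60%) and in 34.3% of the 27457 promoters of the same length. TATAAA stood in 14 Hist promoters (56%), in 2 variant promoters (20%) and in 13.1% of all promoters. The octamer, long known from H2B promoters, stood in 10 Hist promoters (40%), in 1 variant promoter (10%) and in 1.501% of all. AAACACA stood in 5 Hist promoters (20%), in 1 variant promoter (10%) and in 6.07% of all. No searched string contains another. The promoters of Hist3h2a and Hist3h2bb overlap, as do those of Hist1h2ba and Hist1h2aa, so a match within the overlap counts for both genes. The octamers of each of these pairs are such shared matches. The E2F strings stood in 2 Hist promoters (8%), in no variant promoter and in 1.81% of all, and TGACGTCA stood in no member against 1.70% of all. These matches are descriptions of letters, and binding was not measured. By gene identifier, 24 of the 36 members have another symbol in RefSeq today; H2afz is H2az1, H2afx is H2ax, H2afy is Macroh2a1, Hist1h1d is H1f4 and Hist1h2bh is Hist1h2bq. In GRCr8, 19 members lie on chromosome 17, 5 on chromosome 10 and 5 on chromosome 2.

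Levels, per transcript length, differed widely between both classes. Hist3h2ba, an H2B gene, led the Hist class with a mean of 84.2 FPKM over the 19 libraries, followed by the linker gene Hist1h1d at 41.5, the H2B gene Hist1h2bh at 38.7 and the H2A gene Hist3h2a at 22.6 FPKM. The lowest tested Hist gene, the H2A gene Hist2h2ab, averaged 0.842 FPKM. H3f3b, which encodes the replacement form of H3, led the variants with 845 FPKM. H2afz, which encodes H2A.Z of promoters and enhancers, followed at 353 FPKM, and H2afy, which encodes a macroH2A with a large non-histone domain, at 130.3 FPKM. H1f0, the linker histone of resting and differentiated cells, averaged 111 FPKM and H2afx, whose protein is phosphorylated around DNA breaks, 99.7 FPKM. The other macroH2A gene H2afy2 averaged 84.4 FPKM, the second H2A.Z gene H2afv 61.3 FPKM and H2afj 29.95 FPKM. Summed over their genes, the Hist class made up 11.9% to 16.8% of all histone FPKM in a library.

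**Figure D1:**
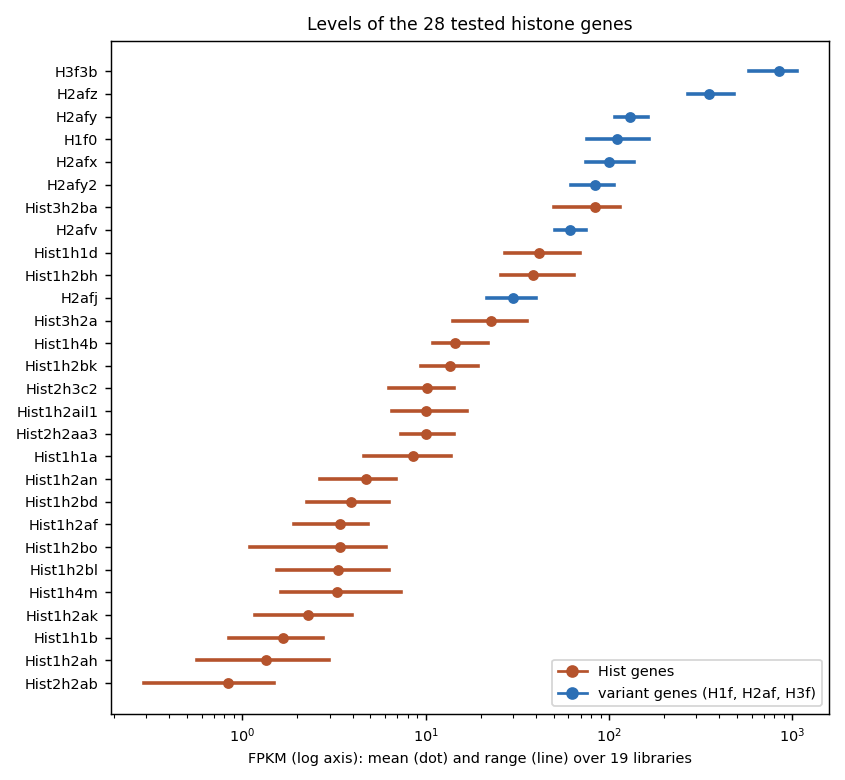
Mean (dot) and range over the 19 libraries (line) of the FPKM of each tested histone gene, on a log axis, for 20 Hist genes and 8 variant genes. H3f3b at 845 FPKM and H2afz at 353 FPKM stand highest, and Hist3h2ba at 84.2 FPKM is the highest Hist gene.

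The 8 members that did not pass the filter include genes known for expression in germ cells. Hist1h1t, the testis linker histone, ran from 0.06 to 0.72 FPKM, and Hist1h2ba and Hist1h2aa, a testis H2B and H2A, ran from 0.13 to 1.10 and from 0 to 0.48 FPKM. Hist3h3 ran from 0 to 1.47, Hist2h4 from 0 to 1.02 and Hist3h2bb from 0 to 0.34 FPKM. The oocyte linker gene H1foo was listed at 0 in 17 libraries and the spermatid linker gene H1fnt in 18, and neither exceeded 0.04 FPKM. Hist3h2bb faces Hist3h2a head to head, and their RefSeq records of 300 bases, which reach 50 bases past each start, share 283 bases, yet Hist3h2a averaged 22.6 FPKM and Hist3h2bb 0.0679 FPKM. Hist1h2ba and Hist1h2aa form a like pair, with 261 bases shared between such records, and averaged 0.507 and 0.197 FPKM.

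PolyP against control asks what the phosphate polymer does within 90 min. Of 28 tested members, 10 rose and none fell (limma on log2(FPKM + 1), adjusted p under 0.05), where 23.0% of the 11887 tested genes rose and 8.77% fell. The 10 comprised 3 of 20 Hist genes (15%) and 7 of 8 variant genes (87.5%), so the called share of Hist genes was below that of all genes. These differences in share were not tested. The median log2 change was 0.32 for Hist and 0.37 for variant genes, against 0.04 for all tested genes. Changes were positive for 19 of 20 Hist genes and 8 of 8 variant genes, also with equal sums per library, median-of-ratios scaling and quantile normalization. Over all genes 72.4% of calls were rises, a share that was 45.7% with equal sums, 53.7% with median-of-ratios scaling and 67.7% after quantile normalization. Equal sums moved the median of all genes by -0.10 on the log2 scale, and the members' medians were then 0.22 for Hist and 0.25 for variant genes. In bulk RNA of mixed cultures, more cells of a type cannot be told apart from more RNA per cell.

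Hist genes that passed the test encode H4, H2A and H2B. Hist1h4b, an H4 gene, had 17.7, 19.5, 16.4, 20.4 and 21.8 FPKM in PolyP cultures, against 12.0, 11.2, 11.5, 13.2 and 16.9 FPKM in control cultures. The highest control library exceeded the lowest PolyP library, and otherwise the groups were apart. Its log2 fold change was 0.54 ± 0.11 (SE, limma adjusted p = 0.00111), with 0.58 within set 1 and 0.47 within set 2. Hist1h2ail1, an H2A gene, had 11.2, 11.8, 11.2, 13.1 and 16.8 FPKM with PolyP and 8.41, 8.00, 8.05, 7.61 and 12.1 FPKM in control cultures. The overlap again came from control 5, which stood well above the other 4. Hist1h2ail1 rose by 0.49 ± 0.12 (SE, limma adjusted p = 0.00458). Hist1h2bk, an H2B gene, had 16.7, 15.8, 13.8, 17.1 and 19.4 FPKM with PolyP, against 14.6, 12.0, 9.48, 15.4 and 12.5 FPKM in control cultures. Its groups overlapped more widely, and its change of 0.35 ± 0.12 (SE, limma adjusted p = 0.0264) lost the call without control 2, control 3, PolyP 4 or PolyP 5 (limma adjusted p up to 0.0718).

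The most abundant Hist genes had a wide spread and did not pass the test. Hist1h2bh had 45.8, 49.3, 31.6, 59.8 and 64.3 FPKM with PolyP, against 36.2, 27.0, 28.9, 39.0 and 46.4 FPKM in control cultures, a log2 difference of 0.47 ± 0.18 (SE, limma adjusted p = 0.0578). Hist1h1d had 47.6, 52.0, 29.1, 65.5 and 69.8 FPKM with PolyP, against 34.0, 28.8, 27.5, 48.2 and 54.9 FPKM in control cultures (0.43 ± 0.24, SE, limma adjusted p = 0.179). In both genes the third PolyP library, the only PolyP library of library class 1b, lay at the level of the lower control libraries. Both control libraries of set 2 lay above the other 3. Hist3h2a had 26.3, 23.5, 18.0, 34.9 and 35.7 FPKM with PolyP, against 21.97, 14.2, 16.4, 26.4 and 29.8 FPKM in control cultures. Hist3h2ba had 82.0, 80.9, 71.5, 115 and 106 FPKM with PolyP, against 83.0, 50.3, 74.4, 93.6 and 98.1 FPKM in control cultures, a difference of 0.20 ± 0.16 that is close to its standard error. The only H3 gene tested in this class, Hist2h3c2, had 8.92, 11.5, 9.39, 12.8 and 14.3 FPKM with PolyP and 9.08, 8.08, 9.51, 9.07 and 12.4 FPKM in control cultures (0.21 ± 0.15). Hist1h1a, a further linker gene, averaged 11.2 ± 2.67 FPKM with PolyP and 7.53 ± 2.61 FPKM in control cultures (SD, n = 5 each), with a difference of 0.54 that did not pass (limma adjusted p = 0.0835). Hist2h2ab alone was lower with PolyP, at 0.740 ± 0.258 FPKM against 1.15 ± 0.293 FPKM in control cultures (log2 difference -0.31, limma adjusted p = 0.128).

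Among variants, H2afx and H2afz changed most. H2afx had 131, 138, 109.5, 133 and 136 FPKM in PolyP cultures, against 95.0, 75.5, 81.7, 75.3 and 95.2 FPKM in control cultures. Every PolyP library stood above every control library, and the rise was 0.61 ± 0.096 on the log2 scale (SE, limma adjusted p = 0.000222). H2afz had 482, 482, 401, 445 and 461 FPKM with PolyP and 316, 272, 317, 279.7 and 349 FPKM in control cultures, again without overlap (0.57 ± 0.073, SE, limma adjusted p = 0.000107). The third PolyP library was the lowest of its group for both genes. The groups of H2afy were also apart, with 143, 151, 141, 159 and 164 FPKM with PolyP against 123, 107, 122, 117 and 124 FPKM in control cultures (0.35 ± 0.055, SE, limma adjusted p = 0.000239). H2afv averaged 69.0 ± 5.49 FPKM with PolyP and 59.7 ± 5.54 FPKM in control cultures (SD, n = 5 each). Its PolyP libraries ran from 64.45 FPKM and its control libraries up to 64.44 FPKM, apart only in the last deposited decimal. These 4 variants were the only members whose groups did not overlap, where 14.6% of all tested genes had every PolyP value above every control value and 4.31% every value below.

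The remaining variants overlapped between groups. H3f3b had 1013, 991, 814, 1058 and 1049 FPKM with PolyP, against 815, 582, 741, 779 and 862 FPKM in control cultures. The third PolyP library lay below control 1 and control 5, and the second control library was far below the rest. H3f3b rose by 0.39 ± 0.091 (SE, limma adjusted p = 0.00357), but by only 0.10 after quantile normalization (limma adjusted p = 0.222). H2afy2 rose by 0.33 (97.5 ± 7.93 FPKM with PolyP, 77.7 ± 9.67 FPKM in control cultures) and H2afj by 0.30 (34.3 ± 4.84 and 27.7 ± 4.57 FPKM). The H2afj call was at the edge (limma adjusted p = 0.0472) and was lost in 7 of 10 fits without a library, those without control 2, 3 or 4 or PolyP 1, 2, 4 or 5. The H2afv call (0.21, limma adjusted p = 0.0240) was lost without control 1, PolyP 4 or PolyP 5. H1f0 had 124, 131, 95.8, 145 and 166 FPKM with PolyP, against 95.9, 76.2, 83.3, 117 and 133 FPKM in control cultures, and its difference of 0.39 ± 0.17 did not pass (limma adjusted p = 0.0873).

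**Figure D2:**
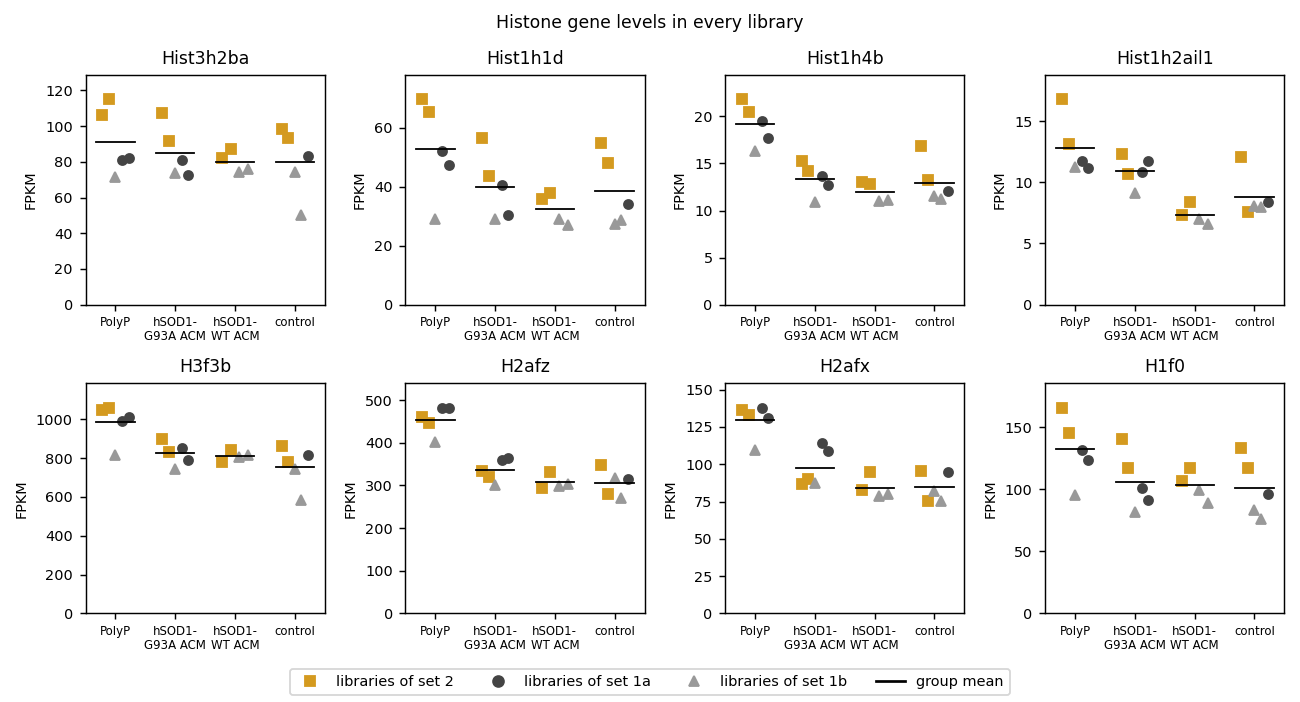
FPKM of 4 Hist genes (upper row) and 4 variant genes (lower row) in every library, by group, with the group mean as a line and symbols for the library sets 2, 1a and 1b. For H2afz and H2afx every PolyP library stands above every control library, while Hist1h1d and H1f0 also separate by library set within each group.

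The count of called members moved with the libraries included. Without control 5, the library with the highest Hist sum among controls, 17 members rose (9 Hist and 8 variant), against 22.8% of all genes in that fit. Without PolyP 3, the lowest of its group, 15 rose against 23.1% of all genes. Without PolyP 4 there were 7 against 19.9%, and without PolyP 5 there were 7 against 20.6%. Hist1h4b, H2afz, H2afx and H2afy kept their calls in all 10 fits without a library and under all 15 other settings tried. Hist1h2ail1 lost the call within set 2 alone (limma adjusted p = 0.0535) and H2afy2 within set 1 alone (limma adjusted p = 0.0771). Equal sums and median-of-ratios scaling each ended the calls of Hist1h2bk, H2afv and H2afj.

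**Figure D3:**
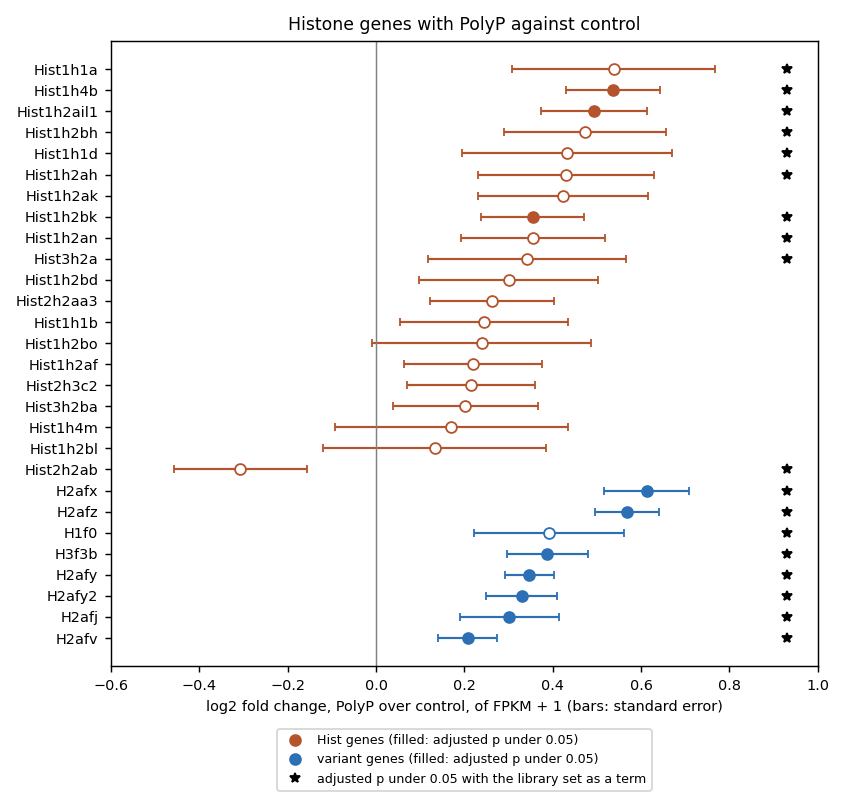
Log2 fold change of FPKM + 1, PolyP over control, with its standard error, for each tested member, Hist genes above and variant genes below. Filled symbols mark an adjusted p under 0.05 and stars the same with the library set as a term; 19 of 20 Hist and 8 of 8 variant genes are above 0, and error bars are wider for Hist genes.

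The median Hist change minus the median variant change was -0.05. The same difference in level had an SD of 0.17 between libraries of a group. That SD is of single libraries and is not a standard error of the change, so the class difference was not tested. The class difference depended on the pseudocount. With 5 in place of 1 the medians were 0.19 for Hist and 0.36 for variant genes, a difference of -0.17. With 0.1 both medians were 0.37. The median standard error was 0.19 for Hist and 0.086 for variant genes, against 0.10 for all genes. The share of the Hist class in summed histone FPKM was 14.1% ± 1.63 in PolyP cultures, 14.3% ± 1.71 with hSOD1-G93A ACM, 13.2% ± 1.10 with hSOD1-WT ACM and 14.7% ± 1.79 in control cultures (SD; n = 5, 5, 4 and 5). The Hist sums were 313, 325, 246, 404 and 415 FPKM with PolyP and 268, 192, 222, 304 and 348 FPKM in control cultures, overlapping groups with means of 341 and 267. Variant sums were 2092, 2087, 1739.6, 2159 and 2188 FPKM with PolyP and 1614, 1259, 1508, 1536 and 1743 FPKM in control cultures, so that only the third PolyP library lay below a control library. Means for hSOD1-G93A ACM were 278 FPKM (Hist) and 1665 FPKM (variant), and for hSOD1-WT ACM 242 and 1584 FPKM. All members together made up 0.476% ± 0.0384 of the summed FPKM with PolyP and 0.387% ± 0.0412 in control cultures. By histone type, H4 sums of the Hist class were 23.2 ± 3.16 FPKM with PolyP against 16.4 ± 2.19 FPKM in control cultures, and H2B sums, the largest of the class, 171 ± 32.8 against 139 ± 30.7 FPKM (SD, n = 5 each).

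**Figure D4:**
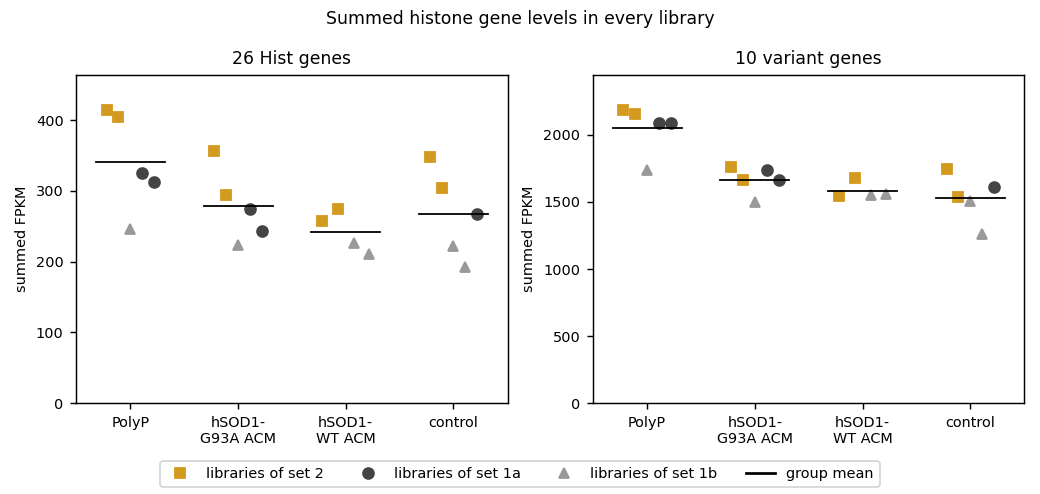
Summed FPKM of the 26 Hist genes (left) and the 10 variant genes (right) in every library, by group, with the group mean as a line and symbols for the library sets. Hist sums with PolyP run from 246 to 415 FPKM and overlap control (192 to 348 FPKM); variant sums with PolyP run from 1739.6 to 2188 FPKM.

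Hist genes varied more between libraries of a group than variant genes did, and they differed between the library sets. The SD within groups had a median of 0.31 (log2) for Hist genes, 0.14 for variant genes and 0.16 for all genes. Set 2 was compared with set 1 by the mean of the log2 differences within the 4 groups. By this measure set 2 was higher in 19 of 20 Hist genes, by a median of 0.30. It was higher in 8 of 8 variant genes, by 0.10, and in 55.9% of all genes, by 0.03. For H2afz and H2afx the difference was only 0.013 and 0.012, and their plain means were slightly lower in set 2. Hist1h1d averaged 51.6 ± 12.3 FPKM in set 2 and 34.1 ± 8.70 FPKM in set 1, and Hist3h2ba 97.6 ± 11.2 and 74.5 ± 9.02 FPKM (SD, n = 8 and 11). H1f0 also differed, with 130.4 ± 19.4 FPKM in set 2 and 97.2 ± 17.0 FPKM in set 1, while H2afz, at 352 ± 66.2 and 354 ± 72.7 FPKM, differed little. Cell type markers also differ between the sets: 8 dividing-cell markers summed to 177 to 246 FPKM in set 2 and 198 to 293 FPKM in set 1, and 8 microglial markers to 41.0 to 54.0 and 69.9 to 522 FPKM. The part of cell makeup in these differences was not tested. With the set as a term of the fit, 9 Hist and 8 variant genes rose with PolyP and Hist2h2ab fell, against 32.7% and 19.4% of all genes, and the 10 earlier calls were all among them. The set term with equal sums per library gave 5 Hist and 6 variant genes higher and 1 Hist gene lower, against 19.3% and 29.2% of all genes. With the 3 library classes as the term, 9 Hist and 8 variant genes rose and none fell, against 34.7% and 21.1% of all genes. Newly called Hist genes with the set as a term included Hist1h2bh (limma adjusted p = 0.00197), Hist1h1a (0.00887), Hist1h1d (0.0127) and Hist3h2a (0.0276), and H1f0 joined the variants (0.00223).

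PolyP was also set against hSOD1-G93A ACM, a comparison added after the data were seen. It shares the PolyP cultures with the one above. Here 5 members were higher with PolyP and none lower, against 14.8% and 4.90% of all genes: Hist1h4b, H2afz, H2afx, H2afy and H2afv. Hist1h4b had 16.4 to 21.8 FPKM with PolyP, above all of the 12.8, 13.6, 10.9, 14.2 and 15.3 FPKM with hSOD1-G93A ACM, and its log2 change was 0.49 ± 0.11 (SE, limma adjusted p = 0.00552). H2afz had 401 to 482 FPKM with PolyP, also above all of the 365, 359, 302, 321 and 334 FPKM with hSOD1-G93A ACM (0.43 ± 0.073, SE, limma adjusted p = 0.00139). H2afx had 109.5 to 138 FPKM with PolyP, against 109, 114, 87.7, 90.0 and 86.5 FPKM with hSOD1-G93A ACM, whose second library reached above the third PolyP library (0.41 ± 0.096, SE, limma adjusted p = 0.00774). Groups were apart for 4 members, Hist1h4b, H2afz, H2afy and H2afv, against 12.3% of all genes all above and 3.92% all below. Median changes were 0.26 for Hist and 0.25 for variant genes, against 0.04 for all genes. Same-numbered libraries of these groups deviated together, but they also share their library class, so pairing cannot be told apart from class. With the replicate number as a block 12 members were higher, 6 Hist and 6 variant, and none lower, against 21.6% and 10.1% of all genes. The block added Hist1h2bh, Hist2h2aa3, Hist1h1a, Hist1h2ak, Hist1h2ah, H3f3b and H1f0. The count was 8 without PolyP 3, against 15.1% of all genes, the H2afv call ended without PolyP 4 or PolyP 5, and within set 1 only Hist1h4b was called.

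The hSOD1-G93A ACM against hSOD1-WT ACM comparison addresses what mutant astrocytes add. No member passed the test with limma, where 0.00841% of genes rose and 0.463% fell. Of the 28 members 3 had an unadjusted limma p under 0.05, as had 599 of all 11887 tested genes. Hist1h2ail1 had 11.7, 10.8, 9.16, 10.7 and 12.3 FPKM with hSOD1-G93A ACM, against 6.56, 7.02, 8.35 and 7.31 FPKM with hSOD1-WT ACM. Its groups did not overlap, as in 1.35% of all genes that were all above and 1.37% all below, and the difference was 0.52 ± 0.13 (SE, limma unadjusted p = 0.000718, adjusted p = 0.120). With the set as a term it was the 1 member that passed (limma adjusted p = 0.00997), against 0.0589% of genes that rose and 0.774% that fell. Hist2h3c2 had 9.68, 12.9, 9.53, 11.1 and 11.7 FPKM with hSOD1-G93A ACM, against 6.34, 7.04, 11.1 and 8.24 FPKM with hSOD1-WT ACM (0.40 ± 0.15, SE, limma adjusted p = 0.744). H2afj averaged 31.6 ± 2.25 FPKM (SD, n = 5) and 25.3 ± 3.20 FPKM (SD, n = 4), a difference of 0.32 (limma adjusted p = 0.714). The median difference was 0.18 for Hist and 0.10 for variant genes, against 0.01 for all genes, with 19 of 20 and 8 of 8 members positive. Library class 1a holds 2 hSOD1-G93A ACM and 0 hSOD1-WT ACM libraries. With the 3 library classes as a term the medians were 0.14 for Hist and 0.05 for variant genes, against 0.02 for all genes. Then 15 of 20 Hist and 6 of 8 variant genes were positive. With the library set as a term the medians were 0.22 and 0.11. Without hSOD1-G93A ACM 5 the Hist median was 0.08, with 14 of 20 genes positive, and without hSOD1-WT ACM 1 it was 0.11; with the replicate block it was 0.09.

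Either conditioned medium against untreated cultures gave no called member. With hSOD1-G93A ACM 0.0168% of genes rose and none fell. Of the 28 members 2 had an unadjusted limma p under 0.05, as had 426 of all 11887 tested genes. Hist1h2ail1 was 0.29 above and Hist2h2ab 0.37 below control, with limma adjusted p = 0.966 for both. Their FPKM were 10.9 ± 1.198 with hSOD1-G93A ACM against 8.83 ± 1.83 in control cultures for Hist1h2ail1, and 0.660 ± 0.206 against 1.15 ± 0.293 for Hist2h2ab (SD, n = 5 each). With hSOD1-WT ACM 0.564% of genes rose and 0.0673% fell. No member reached an unadjusted limma p under 0.05, where 442 of all 11887 tested genes did. Hist differences from control had a median of -0.16 with hSOD1-WT ACM and 0.06 with hSOD1-G93A ACM, and variant differences medians of 0.00 and 0.13. The Hist median for hSOD1-G93A ACM changed sign without hSOD1-G93A ACM 5 (-0.05), control 3 (-0.05) or control 2 (-0.03) and within set 2 (-0.06), and reached 0.14 without control 5. For hSOD1-WT ACM the Hist median ran, without a library, from -0.25 (without control 2) to -0.08 (without control 5). It was -0.27 within set 2 and -0.10 within set 1. With hSOD1-WT ACM 2 of 20 Hist genes were above control, against 49.7% of all genes. With the library set as a term 0 of 20 were, against 47.3% of all genes. H3f3b had 789.7, 853, 745, 831 and 899 FPKM with hSOD1-G93A ACM and 813, 806, 839 and 777 FPKM with hSOD1-WT ACM. H2afz had 303, 299, 331 and 295 FPKM with hSOD1-WT ACM, within its control range. These comparisons share the control cultures.

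**Figure D5:**
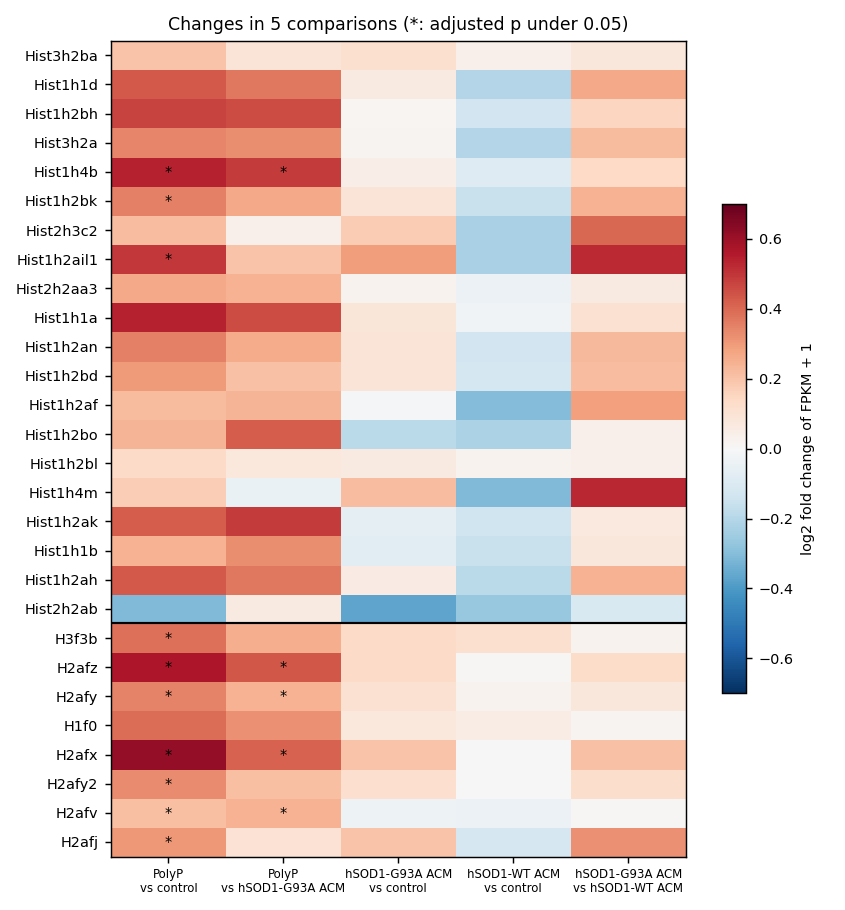
Log2 fold change of FPKM + 1 of each tested member (Hist genes above the line, variant genes below it) in 5 comparisons, with a star where the adjusted p is under 0.05. Called members appear with PolyP, 10 against control and 5 against hSOD1-G93A ACM, and in none of the 3 other comparisons.

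Genes that serve histones were described through 4 lists. In PolyP against control, 6 of 14 tested genes of histone mRNA processing and transcription rose and none fell, with a median change of 0.15, where 23.0% of all genes rose and 8.77% fell. Slbp, which binds the stem-loop of histone mRNA, rose by 0.46 to 37.6 ± 2.58 FPKM with PolyP, against 27.2 ± 3.39 FPKM in control cultures (SD, n = 5 each, limma adjusted p = 0.000286), and Eri1, a nuclease that trims that stem-loop, rose by 0.38. Of histone chaperones and remodelers, 13 of 24 rose and none fell (median 0.24). These include Npm1, at 524 ± 28.03 FPKM with PolyP against 365 ± 30.7 FPKM in control cultures, the histone acetyltransferase Hat1 (0.50) and Asf1a, a chaperone of H3 and H4 (0.45). Of S phase and mitosis genes, 24 of 29 rose and none fell (median 0.32), with Pcna, the replication clamp, at 174 ± 13.1 FPKM with PolyP and 112 ± 10.5 FPKM in control cultures. Of other chromatin proteins, 9 of 14 rose and none fell (median 0.35), led by the high mobility group gene Hmgb2 at 250.5 ± 27.2 and 143 ± 15.0 FPKM (0.81, limma adjusted p = 9.1e-05). Dividing-cell markers, all 8 of which are also in the S phase and mitosis list, summed to 244 to 293 FPKM with PolyP and 180 to 219 FPKM in control cultures, and their part in the histone changes was not tested. Microglial markers summed to 48.8 to 160 FPKM with PolyP and 46.3 to 522 FPKM in control cultures. Summed fibroblast or meningeal markers were 332 to 639 FPKM with PolyP and 509 to 824 FPKM in control cultures, and 2 of 5 fell, Col1a1 and Pdgfrb (median change -0.37). Summed markers of oligodendrocyte precursors were 156 to 287 FPKM with PolyP and 75.9 to 244 FPKM in control cultures, and 1 of 5 rose, Olig1 (median change 0.42). The part of these cell types in the histone changes was not tested. With the library set as a term, 32.7% of all genes rose with PolyP and 19.4% fell. In that fit 1 gene of histone mRNA processing, 2 chaperones and 1 gene of S phase and mitosis fell, beside 7, 14 and 26 that rose. Of other chromatin genes 11 rose and none fell. No gene of the 4 histone-related lists passed the test in the 3 comparisons among the ACM groups and control.

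By pattern over the 19 libraries, genes among those most like H2afz were Rps13 (Pearson's r of log2 values 0.983), Ran (0.981), Rpl23 (0.981) and Dut (0.980). Within set 2 (n = 8) Rps13 had r = 0.999 and within set 1 (n = 11) 0.980. The genes most like the Hist sum were Ppdpf (0.962), Sars (0.958), Ubald1 (0.957), Dctn3 (0.954) and Pmvk (0.954), and Ppdpf had 0.899 within set 2 and 0.965 within set 1. These coefficients are among the highest of 11859 genes compared, and the libraries share treatments and sets. They describe likeness only.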

How the data were processed

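The authors deposited a table of FPKM values per gene, with 2 decimals, for 19 libraries. The submitters' processing notes name HISAT and the rat build rn6. What software produced the FPKM values, and from which annotation release, is not given in the sources used here. Columns were matched to the labels by title. Absolute depth is unknown; relative depth was read from steps of low values in 185 genes. The members and lists, and the library sets found by clustering, were chosen with earlier results of these data known. Genes with FPKM of at least 1 in at least 4 libraries (11887) were tested on log2(FPKM + 1) with limma 3.58.1 (R 4.3.3, trend and robust options), in 1 fit over the 4 groups, two-sided, with Benjamini-Hochberg adjustment over all tested genes and a threshold of 0.05. Fold changes on this scale understate those of low genes. All 28 tested members could be named; values per library were to be given for the 4 most abundant members of each class and the 4 of each class with the smallest p in any comparison, and up to 4 genes per list were to be named by p. Replicate numbers were checked for pairing: between PolyP and hSOD1-G93A ACM each of 5 same-numbered pairs deviated together (r 0.688 to 0.764). Same-numbered libraries of these groups also share their library class (1a, 1b or set 2). Pairing therefore cannot be told apart from shared class, and the labels were not the source of the replicate block. No libraries were identical, and within groups r was 0.956 to 0.997. Alternatives covered pseudocounts, filters, scalings, the replicate block, the library sets and leaving out each library. The limma fit was tested on simulated data. A gene with a pattern like that of H2afz is not reported here.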

Additional observations from a re-analysis of the deposited data

Results flagged for a closer look

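In 7 of 112 groups of member values a single library stood far from the rest of its group, judged by its gap to the nearest library over the range of the group (Dixon's criterion); chance gives about 1 in 20. Hist1h2ail1 in control 5 had 12.07 FPKM, with the next library at 8.41. Hist1h2bl in PolyP 1 had 5.34 FPKM, with the next at 3.09. Hist1h1b in hSOD1-WT ACM 3 had 2.39 FPKM, with the next at 1.07. The third PolyP library was low for H3f3b, at 814.24 FPKM with the next at 990.87, and for H2afx, at 109.55 FPKM with the next at 131.14. It is the only PolyP library of library class 1b. Among hSOD1-WT ACM cultures, H2afy2 in the third library was high at 81.83 FPKM (next 75.64), and H2afj in the fourth at 30.05 FPKM (next 24.13). The causes were not tested.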

How the results depend on the processing

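The count of members called in PolyP vs control was 10, where 23.0% of all genes rose. It was higher with the replicate block (16, 30.2% of all genes), the library set as a term (18, 32.7%), the 3 library classes as a term (17, 34.7%), set 2 only (14, 28.1%), the set term with quantile normalization (15, 30.3%) and the set term with equal sums (12, 19.3%). It was lower, at 7, with equal sums (11.8%), median-of-ratios scaling (15.1%), quantile normalization (19.5%) and only the 2 groups compared (18.0%), and 8 within set 1 (15.3%). Leaving out a library gave 7 to 17. Percentages are of all genes that rose, and with the set term, the set term with equal sums and set 2 only 1 of the members called was lower. For PolyP vs hSOD1-G93A ACM the count was 5 (14.8%), and 12 with the replicate block (21.6%), 13 with the set term (25.2%), 17 with the class term (29.1%), 11 within set 2 (22.7%), 1 within set 1 (0.505%), 8 with the set term and equal sums (14.2%) and 8 with the set term and quantile normalization (20.3%). Leaving out a library gave 4 to 8. For hSOD1-G93A ACM vs hSOD1-WT ACM the count was 0, and 1 with the block, the set term, the class term, set 1 only, and the set term with equal sums or quantile normalization; leaving out a library gave 0. Both comparisons of an ACM with control gave 0 under every setting tried. In PolyP against hSOD1-G93A ACM same-numbered libraries share their library class, and whether they are pairs is unknown. In PolyP vs control and hSOD1-G93A ACM vs control same-numbered libraries also share their class, except number 2, where r was 0.068 and 0.078. The other same-numbered pairs of these comparisons had r of 0.508 to 0.791, so pairing cannot be told apart from class there either. In both comparisons with hSOD1-WT ACM not every number shares a class, and not every pair deviated together. Libraries that correlated best with their own number were 3 in PolyP vs control and 2 in hSOD1-G93A ACM vs hSOD1-WT ACM. They were 3 in hSOD1-G93A ACM vs control and 1 in hSOD1-WT ACM vs control. The median Hist minus median variant change was -0.05, 0.08, -0.07 and -0.16 in these 4 comparisons and 0.02 in PolyP vs hSOD1-G93A ACM, and without a library -0.09 to -0.01, -0.03 to 0.13, -0.17 to -0.03, -0.22 to -0.11 and 0.00 to 0.06. No called member reversed. The causes of these shifts were not tested, and with no absolute depth known, counting error per value could not be given.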
